A study of Homo sapiens with 5 samples.

Results

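The block described here is a run of 830 consecutive rows, those after row 17070 and before row 17901, in a table of nascent RNA counts per gene. Its members were the rows with an Ensembl identifier and at least 15 counts summed over the 5 libraries. They numbered 568, against 14496 genes of the whole table that met the same minimum. The libraries came from HEK293T, a line derived from human embryonic kidney that expresses large T antigen of SV40. Its cells held a landing pad, a site built to receive inserted DNA, and per the labels each line was monoclonal. The CAG landing pad was represented by 3 libraries and the PGK landing pad by 2, with no untreated or parental cells among them. CAG is a strong composite promoter and PGK is the promoter of a glycolytic housekeeping gene. The number of clones per promoter is not stated, so promoter and clone cannot be told apart. Nor is it stated whether the replicates were grown apart, so a p-value here reflects the scatter of these libraries, which may be technical.

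The rows were chosen because their fold changes, CAG over PGK, ran higher over a long stretch. The fold changes, calls and levels by line below are therefore a description, and no test was made of the block as a whole. The block had been expected to be the long arm of chromosome 19. The files give no chromosome, symbol or coordinate, and the RefSeq gene table at hand (GRCh38.p14) pairs no Ensembl identifier with a symbol. That expectation, and the cell type of the line against its marker genes, were therefore not checked, and the genes are called here by identifier or row.

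PRO-seq, a precision run-on assay, lets polymerases that are already engaged on DNA extend their RNA with biotin-labelled nucleotides, and the labelled RNA is then captured and sequenced. The count of a gene thus reports polymerases at work on it and not the RNA that has accumulated. It depends on how many copies of the gene are read, how often polymerase starts and how fast it moves, and a count per gene does not separate these. Levels are given as CPM, scaled by edgeR's TMM factors. They do not take gene length into account. Where genes are grouped by CPM below, it stands for the counts behind a value and does not rank genes by transcription.

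Of the 830 rows, 115 had no count in any library, 147 had 1 to 14 counts and 568 were members. The sparse rows made up 31.6% of the block, 20.3% of the 300 rows before it, 31% of the 300 rows after it and 27.3% of all rows outside the block. They often lay side by side. The longest unbroken run of sparse rows was rows 17735 to 17750, where 16 rows held 14 counts in all and 11 of them held none. Rows 17621 to 17633 formed the next, 13 rows with 42 counts. At the other end, 30 members followed one another without a gap from row 17565. Just below the minimum, 21 rows had 10 to 14 counts, and 31 members had 15 to 29.

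The block took up a larger part of every CAG library. It held 2.09%, 2.15% and 2.03% of the counts in CAG replicates 1, 2 and 3, against 1.48% and 1.35% in PGK replicates 1 and 2. All 3 CAG shares lay above both PGK shares. The mean was 2.09% ± 0.0607 in the CAG line (SD, n = 3) and 1.42% ± 0.0849 in the PGK line (SD, n = 2), a ratio of 1.48. In counts these shares were 101646, 107786 and 119197 in the CAG libraries and 82360 and 50291 in the PGK libraries, out of library totals from 3712105 to 5864157. The 17 tested members that differed by 4-fold or more in either direction carried little of this. Without them the shares were 2.05%, 2.12% and 2.0% in the CAG libraries and 1.47% and 1.35% in the PGK libraries.

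Member by member, the rise was broad and mostly modest. After edgeR's filter on low counts, 524 members were tested, and fold changes are given minus the median of all 13400 tested genes. The median over the tested members was 0.60 on the log2 scale, a 1.52-fold higher level in the CAG line. The middle 50% of members lay between 0.40 and 0.87. Between 1.2-fold and 2-fold higher were 361 members (68.9%), against 20.3% of the tested genes outside the block. A further 99 (18.9%) were at least 2-fold higher, against 4.7% outside, and 17 (3.24%) at least 4-fold higher, against 0.963% outside. Only 22 tested members did not lie above the median of all genes, and 1 was 2-fold lower or more.

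Over all levels together, the width of the distribution was close to that of other genes. The interquartile range was 0.47 on the log2 scale over the 524 tested members and 0.48 over the 12876 tested genes outside. Within 0.25 of the block's own median lay 54.6% of the members, and within 0.25 of their own median lay 52.3% of the other genes. The block's members had lower levels, with a median of 22 CPM against 48.9 CPM outside, and spread depends on level, so the widths at matched levels are given below.

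**Figure D1:**
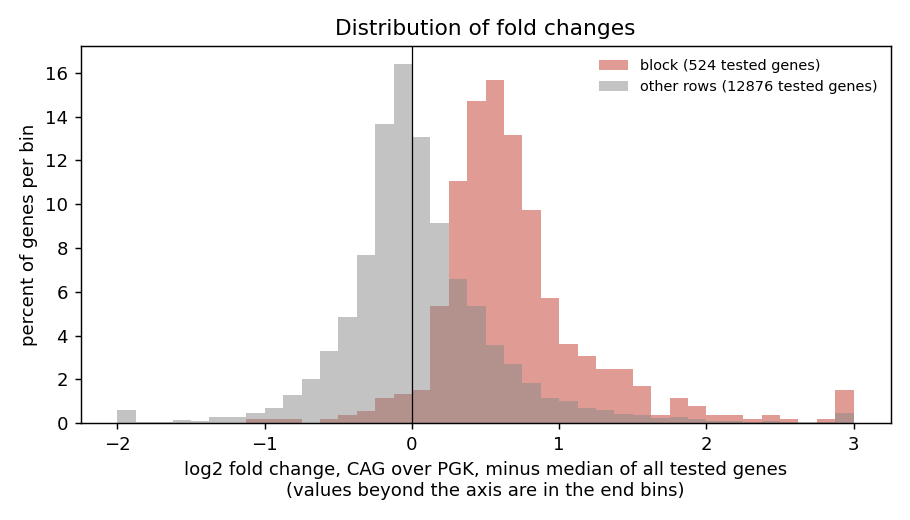
Percent of tested genes (y axis) per bin of log2 fold change, CAG over PGK, minus the median of all tested genes (x axis), for the 524 tested genes of the block in red and the 12876 tested genes of other rows in grey. The block is centred at 0.60 and the other rows at -0.02, with interquartile ranges of 0.47 and 0.48.

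Per gene, the lines were compared with edgeR (quasi-likelihood F test) on all 13400 tested genes, with calls at a Benjamini-Hochberg adjusted p under 0.05. It called 393 members higher in the CAG line, 75% of those tested, where 22.7% of all tested genes were called higher. It called 5 members lower, where 20.7% of all tested genes were called lower. The 3 CAG libraries lay above both PGK libraries for 446 tested members (85.1%), against 30.9% of all tested genes, and lay apart in either direction for 61.2% of all tested genes. Since the rows were chosen on this contrast, these shares describe the choice and nothing is read from them. Among the members called higher the median was 0.69 on the log2 scale and the lowest value was 0.21.

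The 126 members that were not called had less depth behind them. Of these, 109 lay above the median of all genes, with a median log2 fold change of 0.33, a median standard error of 0.21 and a median level of 10.3 CPM. The members called higher had a median standard error of 0.14 and a median level of 27.8 CPM. The other 17 lay at or below the median of all genes, with values from -0.47 to -0.004. A further 44 members did not pass the filter and were not tested. They had 15 to 43 counts over the 5 libraries, and the mean was higher in the CAG line for 36 of them and lower for 8. The like share of untested genes outside the block is not given here, so nothing is read from this count. Scarce tested genes outside also leaned to the CAG line, with a median of 0.26 in the lowest of the level groups described below.

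The start of the block was abrupt. The rows were chosen on these same fold changes, so the choice favours a step at either end, and neither step was tested. The last tested gene before it, at row 17070, had a relative log2 fold change of -0.52, and the first inside it, in the very next row, had 0.62. The next tested genes inside, at rows 17073 and 17074, had 0.55 and 0.45, and the next outside, at rows 17069 and 17067, had -4.09 and -0.18. The median was 0.56 over the first 50 rows of the block and -0.55 over the 50 rows just before it. Over the 300 rows before the block the median was -0.43, and 137 of 218 tested genes there were called lower in the CAG line. The far end was a step down to the level of the whole table. The last 3 tested members, at rows 17892 and 17893 and in the last row of the block, had 0.65, 0.79 and 0.43, and the first 3 tested genes beyond them had 0.26, 0.03 and 0.23. The median over the 300 rows after the block was -0.04, with 19 of 196 tested genes called higher and 35 lower. No gene between row 17893 and the last row was tested, and whether the last row belongs with the rows before that gap was not checked, since no chromosome is given.

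**Figure D2:**
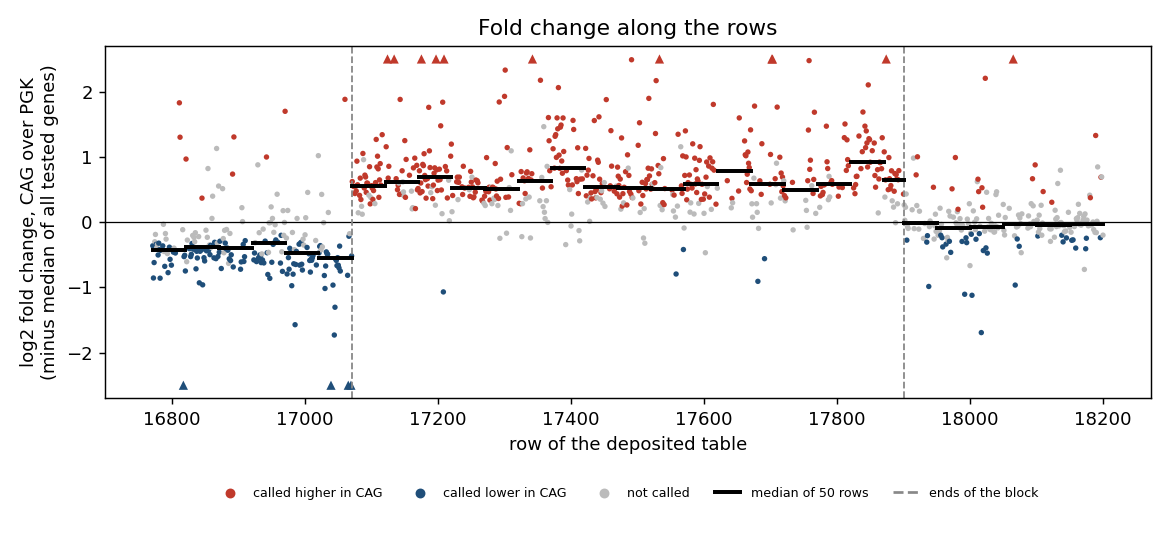
Log2 fold change, CAG over PGK, minus the median of all tested genes (y axis), for each tested gene by its row in the deposited table (x axis), with genes called higher in red, lower in blue and not called in grey. Triangles at the edge are genes beyond 2.5 in size, black bars are medians over 50 rows, and dashed lines mark the ends of the block, where the 50-row median is 0.56 inside the start, -0.55 just before it and -0.02 just after the end.

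Inside the block the level was held throughout. Divided into 17 windows of 50 rows (the last of 30), the median log2 fold change ranged from 0.50 to 0.92, and 13 windows lay between 0.5 and 0.7. In all 17 windows the 3 CAG libraries lay above both PGK libraries, as the choice of rows favours. The highest window was rows 17821 to 17870, where all 29 tested members lay above the median of all genes, the median was 0.92 (1.89-fold) and 13 were at least 2-fold higher. Next was rows 17371 to 17420, with a median of 0.82 (1.77-fold) and 14 of 35 tested members at least 2-fold higher. Rows 17621 to 17670, which hold the 13-row sparse run, had 0.79 over 16 tested members. By contrast, rows 17221 to 17270 had a median of 0.53 over 28 tested members, with none 2-fold higher. The windows with the highest medians had median levels of 18.2 CPM (rows 17821 to 17870) and 21.7 CPM (rows 17371 to 17420). Both lay below the 22 CPM over all tested members. The lowest median level, 11.45 CPM, was in rows 17721 to 17770, which had the lowest median log2 fold change, 0.50. Whether level bears on the differences between windows was not tested. Neighbouring tested members were weakly alike beyond the shared level, with a Pearson correlation of 0.16 over 523 pairs, after their differences from the block median were limited to 1. This value describes neighbouring rows, which share libraries, and is no test.

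The 5 libraries showed the same picture, with a gap between the PGK replicates. Relative to the mean of the 5 libraries, the median log2 level of the members was 0.25, 0.28 and 0.21 in CAG replicates 1, 2 and 3, against -0.27 and -0.43 in PGK replicates 1 and 2. The lines did not overlap, and PGK replicate 2 was the lowest. Over the tested genes outside the block the lines did not overlap either, but those medians ran only from -0.005 to 0.013. Each of the 6 pairs of a CAG with a PGK library gave a median difference above 0, from 0.49 for CAG replicate 3 over PGK replicate 1 to 0.71 for CAG replicate 2 over PGK replicate 2. In these pairs 92.0% to 96.2% of tested members were higher in the CAG library, against 47.7% to 49.1% of tested genes outside the block. The rows were chosen on this contrast and the pairs share libraries, so they are not 6 separate checks.

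**Figure D3:**
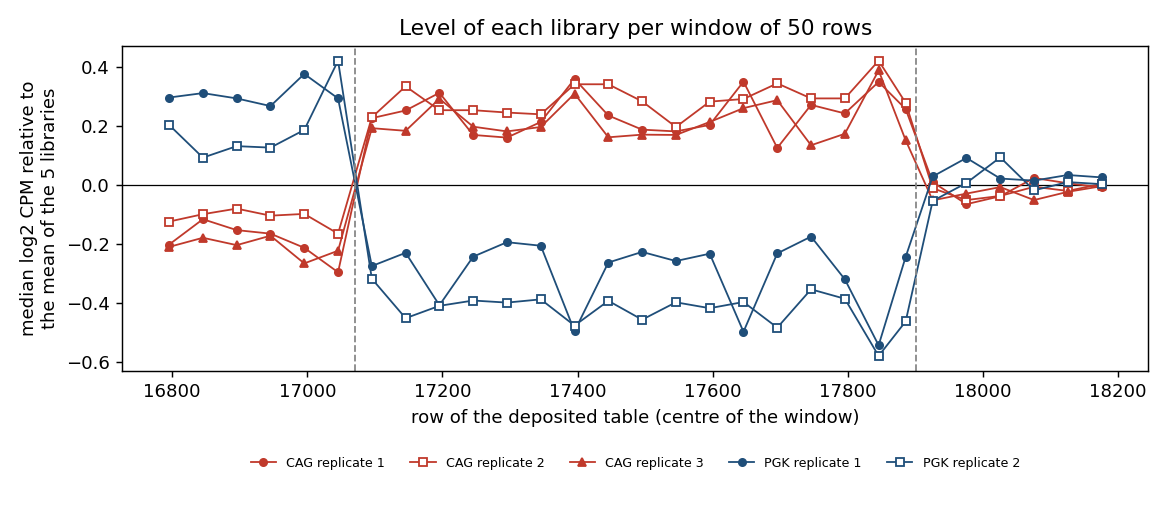
Median log2 CPM relative to the mean of the 5 libraries (y axis) in windows of 50 rows (x axis, row of the deposited table), for the 3 CAG libraries in red and the 2 PGK libraries in blue, with dashed lines at the ends of the block. The CAG libraries lie above the PGK libraries in all 17 windows of the block, and the PGK replicates lie apart in most of them.

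Differences between replicates of a line did not enter the choice of rows directly. PGK replicate 1 exceeded PGK replicate 2 by a median of 0.12 on the log2 scale over the members, and 67.4% of members were higher in replicate 1. Over the tested genes outside the block this median was -0.01. The 2 medians were not matched for level, which was 22 CPM at the median in the block and 48.9 CPM outside. The same gap stood in the 300 rows before the block, at 0.13, and was 0.03 in the 300 rows after it. It was thus shared with the rows where the CAG line was lower. In 16 of the 17 windows PGK replicate 2 was the lower one, by up to 0.30 in rows 17121 to 17170. The exception was rows 17621 to 17670, where it was higher by 0.15. Within the CAG line the medians over the members were -0.04 for replicate 1 minus replicate 2, 0.02 for replicate 1 minus replicate 3 and 0.07 for replicate 2 minus replicate 3. With 2 PGK libraries, which of them is nearer the line's level was not tested. The block's median log2 fold change was 0.53 without PGK replicate 2 and 0.68 without PGK replicate 1. The median count per member was 115.5 to 130 in the CAG libraries, against 84 in PGK replicate 1 and 47 in PGK replicate 2, which had the fewest counts.

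Members with fewer counts behind them had larger and more scattered fold changes. When the tested members were put into 4 groups of 131 by mean level, the median log2 fold change was 0.82 in the lowest group (1.29 to 8.40 CPM), then 0.69 and 0.55, and 0.51 in the highest (46.8 to 375 CPM). The interquartile range was 0.77 in the lowest group and 0.25 in the highest, with median standard errors of 0.32 and 0.09. In the highest group 124 of 131 members were called higher (94.7%), against 20% of genes outside the block over the same range of level, and 2 members were at least 2-fold higher, against 0.693% outside. In the lowest group 71 were called higher (54.2%), against 23.5% outside, and 47 were at least 2-fold higher, against 19.8% outside. Genes outside the block showed a like slope: over the same ranges of level their medians were 0.26, 0.06, -0.01 and -0.06. The block's median minus theirs was 0.57, 0.63, 0.56 and 0.56 from the lowest to the highest group. At matched levels the block's fold changes were narrower than those of all genes outside, with interquartile ranges of 0.77, 0.60, 0.38 and 0.25 against 1.01, 0.65, 0.46 and 0.34. This was not particular to the block. The interquartile range was 0.355 over the 300 rows before it (median level 32.1 CPM) and 0.307 over the 300 rows after it (52.9 CPM).

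**Figure D4:**
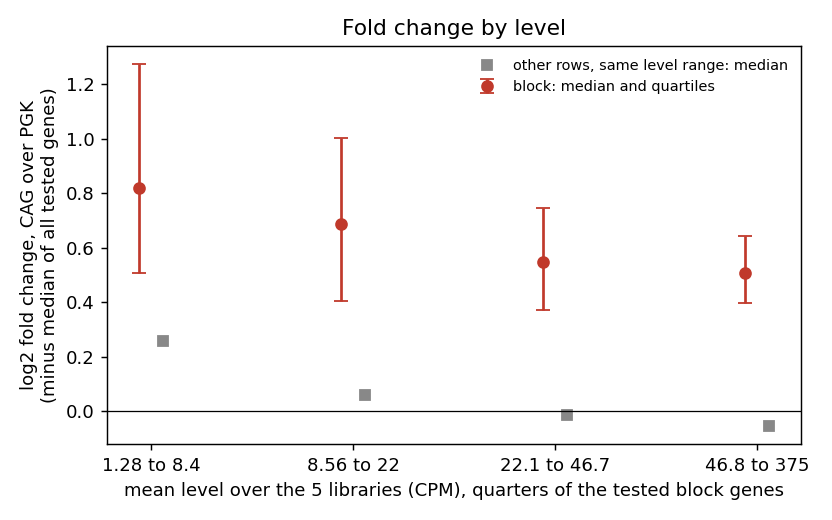
Log2 fold change, CAG over PGK, minus the median of all tested genes (y axis), in 4 groups of tested block genes by mean CPM (x axis), with the median and quartiles in red and the median of genes in other rows over the same range of level in grey. The block medians run from 0.82 to 0.51 and those of the other rows from 0.26 to -0.06.

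For single genes, the log2 fold change is the fitted value without subtraction of the median of all genes, which was -0.005. Among the 10 members with the highest mean CPM no gene changed by 2-fold. Of these, 8 were called higher, where 20% of genes outside the block were called higher over the range of the highest level group. Only 1 was called lower, and the log2 fold changes of the 10 ran from -0.43 to 0.65. The exception was row 17569, which had 1621, 1847 and 1713 counts in the CAG libraries and 1515 and 2213 counts in the PGK libraries. Scaled to library size it stood at 329.7, 365 and 292 CPM in the CAG libraries and 269 and 620.5 CPM in the PGK libraries. The PGK libraries lay on both sides of the CAG libraries. The fitted log2 fold change, -0.43, had an adjusted p of 0.0497 in edgeR. Without PGK replicate 2 it turned to 0.29, called higher, so its direction rests on that library.

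The members with the largest fitted rises were nearly silent in the PGK line. ENSG00000198131, at row 17874, had 240, 259 and 301 counts in the CAG libraries and 4 and 0 counts in the PGK libraries. This was 50.4 ± 1.39 CPM in the CAG line (SD, n = 3) and 0.355 ± 0.501 CPM in the PGK line (SD, n = 2). The ratio of the summed counts per library size was 116, with an exact 95% interval from 45.2 to 427.4 that covers counting error only. On the log2 scale the fitted change was 6.78, with an adjusted p of 7.60e-16 in edgeR. That size rests on the few PGK counts, and it was 6.11 without PGK replicate 2. Without PGK replicate 1 it was 10.94, but no PGK count is then left and the counts do not set the size. ENSG00000181007, at row 17175, had 121, 122 and 156 counts in the CAG libraries and 2 and 0 in the PGK libraries. The ratio was 116, with an exact 95% interval from 31.9 to 960.2, and the fitted log2 change was 6.70, with an adjusted p of 4.20e-13 in edgeR. It was 9.93 without PGK replicate 1, again with no PGK count left, and 6.06 without PGK replicate 2. For both genes all 3 CAG libraries lay far above both PGK libraries, and the intervals overlap, so which rose more is not settled. Neither gene was at 0 in the whole PGK line, and no member was at 0 in all libraries of a line.

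The other 10 of the 12 leading rises with a mean of at least 5 CPM had log2 fold changes from 1.83 to 5.52, with edgeR adjusted p of at most 4.58e-05. In 9 of the 12 the level was lower in PGK replicate 2 than in PGK replicate 1, where 67.4% of all tested members were higher in replicate 1. In 4 of the 12 it was 0 in PGK replicate 2, the library with the fewest counts. The 12 lay between rows 17124 and 17874. A pair of them stood in adjoining rows, 17702 and 17703, singled out after their values were seen. Row 17702 had 51, 48 and 57 counts in the CAG libraries and 11 and 4 in the PGK libraries, a log2 fold change of 2.58. Row 17703 had 91, 94 and 121 counts in the CAG libraries and 14 and 10 in the PGK libraries, a log2 fold change of 2.87. Whether reads of neighbouring or overlapping genes were kept apart is not given in the sources used here.

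The 5 members called lower stood against the rest of the block. ENSG00000167766, at row 17681, had 138, 173 and 142 counts in the CAG libraries and 294 and 201 in the PGK libraries. Its level was 28.8 ± 5.07 CPM in the CAG line (SD, n = 3) and 54.2 ± 2.99 CPM in the PGK line (SD, n = 2), without overlap. The fitted log2 change was -0.91 ± 0.12 (SE), with an adjusted p of 1.22e-06 in edgeR. ENSG00000063127, at row 17558, had 54, 46 and 42 counts in the CAG libraries and 87 and 57 in the PGK libraries. It stood at 9.08 ± 1.92 CPM in the CAG line (SD, n = 3) and 15.7 ± 0.393 CPM in the PGK line (SD, n = 2). The fitted log2 change was -0.80 ± 0.20 (SE), with an adjusted p of 0.00172 in edgeR. Both kept their direction and their call by edgeR with any 1 library left out, and by DESeq2.

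**Figure D5:**
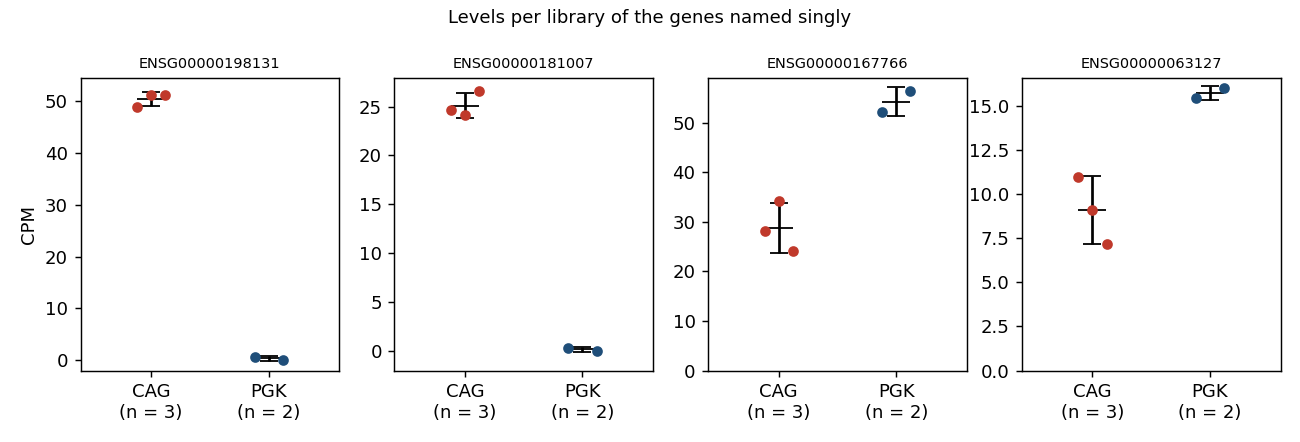
CPM (y axis) in each library (points) of the CAG line and the PGK line, with the mean and SD in black, for the 2 genes with the largest rises and the 2 with the lowest fold changes among members of at least 5 CPM; each panel has its own scale. The 2 rises stand at 50.4 and 25.1 CPM in the CAG line and below 1 CPM in the PGK line, and the 2 falls stand at 28.8 and 9.08 CPM in the CAG line, below both PGK libraries.

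The remaining 3 members called lower were less firm. Row 17569 is the member described above whose direction turned without PGK replicate 2. Row 17691 had 63, 67 and 73 counts in the CAG libraries and 110 and 65 in the PGK libraries, for a fitted log2 change of -0.57 with an adjusted p of 0.00646 in edgeR. By DESeq2 its adjusted p was 0.0631. Row 17208, under 5 CPM, had 15, 21 and 15 counts in the CAG libraries and 43 and 20 in the PGK libraries, for a fitted log2 change of -1.07 with an adjusted p of 0.00391 in edgeR. Without PGK replicate 1 its adjusted p was 0.118, and by DESeq2 it was 0.0617.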

How the data were processed

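The 5 libraries were grouped by their titles, and each of the 5 columns was matched to a sample by its description, with 0 columns left unmatched. The values are whole-number counts per Ensembl gene identifier as deposited by the authors, with no normalization. The hg19 build, featureCounts 2.0.3, HISAT2 2.2.1 and Bowtie2 2.5.1, UMI-tools, cutadapt and fastp 0.23.2 are named in the submitters' processing notes. Their roles, the strand setting, the annotation and the counted part of a gene are not given there, so values of overlapping, antisense or near-identical genes are uncertain. Of 20019 rows, 18 carried no identifier, none of them in the block. They were left out and held at most 0.000448% of a library.

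Genes were kept by edgeR's filterByExpr (minimum count 10, minimum total 15), scaled by TMM and tested for CAG over PGK by the quasi-likelihood F test without covariate (edgeR 4.0.16, R 4.3.3), with Benjamini-Hochberg adjustment over all 13400 tested genes. The standard error of a log2 fold change is its size divided by the root of F. It is not printed for genes with few counts in a line. Log2 CPM used a prior count of 2. The script was checked on simulated counts with known changes in single genes and no shifted stretch of rows. That check does not cover data in which long stretches are shifted. Library totals limit the precision of scarce genes, and the exact intervals (95%) cover counting error only. Replicates of a line differed by more than sampling noise, with a chi-square per degree of freedom of 4.40 between the PGK libraries and 1.63 to 1.83 between the CAG libraries.

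The members and lists were chosen with earlier results of these data known. The rule for named genes took the 12 largest and the 12 lowest fold changes among members with a mean of at least 5 CPM, all members called lower, the 10 highest members, and the 3 tested rows on each side of each end. Because identifiers are not paired with names, only 2 identifiers per direction are printed, and the lists of gene families and marker genes were not used. Alternatives were DESeq2 1.42.0, its size factors, upper-quartile factors, TMM factors from genes outside the rows, limma-trend (limma 3.58.1), other filters, the replicate number as a block, and each library left out.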

Additional observations from a re-analysis of the deposited data

Results flagged for a closer look

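The 262 rows of the block with fewer than 15 counts over all libraries took no part in the comparisons, but their summed level was also higher in the CAG line. It was 37.0, 29.1 and 31.7 CPM in the CAG libraries and 23.2 and 16.8 CPM in the PGK libraries, without overlap. The means were 32.6 ± 4.06 CPM in the CAG line (SD, n = 3) and 20.0 ± 4.53 CPM in the PGK line (SD, n = 2), a ratio of 1.63. These sums rest on 147 to 186 counts in the CAG libraries and on 131 and 60 counts in the PGK libraries. They were flagged because these rows fell below the minimum for members, and the difference was not tested. The rows lie within the range chosen on this contrast, and no like sum is given for sparse rows outside it. Nothing is therefore read from the ratio. No search for a library standing apart was made, since neither line had 4 libraries.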

How the results depend on the processing

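The median log2 fold change of the members stayed between 0.57 and 0.62 under the alternatives that kept all libraries, and between 0.53 and 0.68 with 1 library left out. The lowest value came without PGK replicate 2 and the highest without PGK replicate 1; where 1 PGK library was left, the lone library is taken to scatter as the CAG libraries do. The count of 393 members called higher ran from 299 (DESeq2) to 399 (limma-trend), and from 354 to 371 with 1 CAG library left out. Calls in either direction over the whole table moved too. They numbered 5818 in the main fit, 3943 by DESeq2, 5833 by limma-trend and 4754 to 4999 with 1 CAG library left out. Of the 393, DESeq2 also called 299, and 290 were called higher with each library left out in turn. The count of 5 called lower was 2 by DESeq2, whose cause was not tested. It was 4 or 5 under every other alternative that kept both PGK libraries. The genes counted need not be the same ones. Row 17569 was not called with any 1 CAG library left out (edgeR adjusted p from 0.0574 to 0.138). Without PGK replicate 2 its fitted log2 change was 0.29. With the replicate number as a block, 365 members were called higher and 4 lower, with a median of 0.62. That fit called 4667 genes of the whole table in either direction, against 5818 in the main fit. Only the CAG line had a replicate 3, so in this fit that library did not inform the difference between the lines. No label ties a replicate number to a batch. The correlations of the deviations of libraries with the same number were 0.04 and -0.07, and the design was left unpaired. The 4 genes named by identifier held their direction and their call in every alternative that tested them; the 2 rises dropped out where each library had to reach 1 CPM. A minimum of 50 counts per member, chosen after seeing the data, gave a median of 0.59 with 386 members called higher and 5 lower. Depth limits scarce members, as does the number of PGK libraries.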
